A study of Mus musculus with 34 samples.

Results

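Fos codes for c-Fos, a leucine zipper protein that binds DNA as a dimer with a Jun protein, the pair known as AP-1. It was 1 of 84 inflammatory genes measured by real-time PCR array in the lung of 34 female mice, and its well is D6 on the plate. The deposited files give well positions without gene names. Well D6 was assigned to Fos because the difference of its deposited fold changes between O3 and FA mice of the follicular phase was the value that the study lists for this gene. No other well of the 84 had that difference. In this way 17 wells received a name, and their order on the plate was alphabetical in 16 of 16 neighboring pairs, so that D6 lies where Fos would be in an alphabetical layout. Because that list holds genes that the study found changed in the follicular phase, a difference in that phase was part of how the well came to be named, and it supports nothing beyond the name. Myd88 was named through the study's list for the luteal phase, and Ptgs2 and Ccl17 through both lists. The same limit holds for the luteal differences of these genes.

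The mice were C57BL/6 females in the labels (C57BL/6J in the study's methods), 8 weeks old, that breathed 2 ppm of ozone (O3 groups) or filtered air (FA groups, the controls) for 3 h, with lungs collected 4 h after the exposure ended. Stage was read from vaginal smears, which the study checked against serum estradiol, progesterone and luteinizing hormone 4 h after exposure. Mice with irregular cycles were left out by the study. Proestrus and estrus were grouped as the follicular phase, metestrus and diestrus as the luteal phase. The FA groups held 6 mice in proestrus, 6 in estrus, 4 in metestrus and 4 in diestrus. The O3 groups held 5, 3, 3 and 3 mice, in the same order. Stage was that of each animal's own cycle and was not assigned. No well that could be named is a defining marker of lung or of 1 lung cell type, so the tissue was not checked against markers.

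Fos is an immediate early gene: its transcription starts within minutes of a stimulus from factors already present in the cell, among them the cAMP response element binding protein and the serum response factor, and its mRNA is short lived. AP-1 binds the promoters of cytokine, chemokine and tissue remodeling genes. One of its known targets is Ptgs2, the gene of cyclooxygenase-2, the inducible enzyme of prostaglandin synthesis, which was measured in the same mice in well F10.

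The Fos promoter holds the first letters of a cAMP response element and a TATA box. The 250 bases before the Fos transcription start are printed here from RefSeq (GRCm38.p6, chr12:85473640-85473889, plus strand, directly upstream of the gene at chr12:85473890-85477274). Capitals mark TGACGT, the first letters of the cAMP response element TGACGTCA, and the TATA box TATAAA.
Fos: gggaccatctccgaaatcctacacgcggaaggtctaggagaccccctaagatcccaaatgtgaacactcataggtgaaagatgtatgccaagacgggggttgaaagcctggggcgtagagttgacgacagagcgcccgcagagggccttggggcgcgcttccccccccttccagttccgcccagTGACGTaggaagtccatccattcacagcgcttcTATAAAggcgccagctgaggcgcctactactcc
In Fos, TGACGT lies at bases -66 to -61 and the TATA box at -33 to -28 from the start. The first 30 bases of the Ptgs2 transcript region hold the same letters on the other strand, ACGTCA, at bases 13 to 18 (GRCm38.p6, chr1:150100031-150100060, plus strand, at the start of the gene at chr1:150100031-150108234), again in capitals.
Ptgs2: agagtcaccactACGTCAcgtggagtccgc
These letters were searched in windows of 300 bases around the start, over 27025 mouse genes. TGACGT or ACGTCA, which are contained in the full element, was found in 7.64% of them, TGACGTCA in 1.88%, and TATAAA on the gene strand in 8.88%. The AP-1 letters TGAGTCA and their reverse TGACTCA were found in 5.17% of the windows. Neither the AP-1 letters nor the full TGACGTCA was found in the windows of Fos and Ptgs2. Sites of the serum response factor were not searched. The letters to print were chosen with both sequences in view, and a match is a description of the letters and not evidence of a bound factor.

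All values below are -ΔCt, the threshold cycle (Ct) of a gene subtracted from the mean Ct of 4 reference wells (H1, H2, H3, H5) of the same mouse, a log2 scale on which a higher value is more RNA. Fos gave a Ct in all 34 mice, from 24.0 to 28.4. The levels ran from -6.76 to -3.30.

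In proestrus the 6 FA mice had Fos levels of -6.76, -6.01, -5.45, -5.40, -5.05 and -4.65, and the 5 O3 mice had -4.88, -4.86, -4.45, -4.44 and -4.42. The O3 mice lay close together, and 3 of the 5 were above every FA mouse. In estrus the FA mice had -6.29, -6.09, -5.75, -5.53, -5.52 and -5.19, and the O3 mice -5.39, -4.30 and -3.30. Of the 3 O3 mice, 2 were above every FA mouse and 1 lay among them. In metestrus the 4 FA mice had -6.59, -5.57, -5.53 and -5.48, against -4.49, -4.27 and -4.10 in the O3 mice. The groups did not overlap in this stage. In diestrus the FA mice had -6.34, -6.01, -5.81 and -3.52, and the O3 mice -5.27, -5.07 and -4.72. Here 3 of 4 FA mice were below every O3 mouse, and the remaining FA mouse was above them all. Of the 84 wells, 10.7% in proestrus, 16.7% in estrus, 17.9% in metestrus and 5.95% in diestrus had every O3 mouse above every FA mouse. Lung homogenate holds all cells of the organ, so more or fewer cells that make Fos and more or less Fos RNA per cell cannot be told apart in any of these values.

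**Figure D1:**
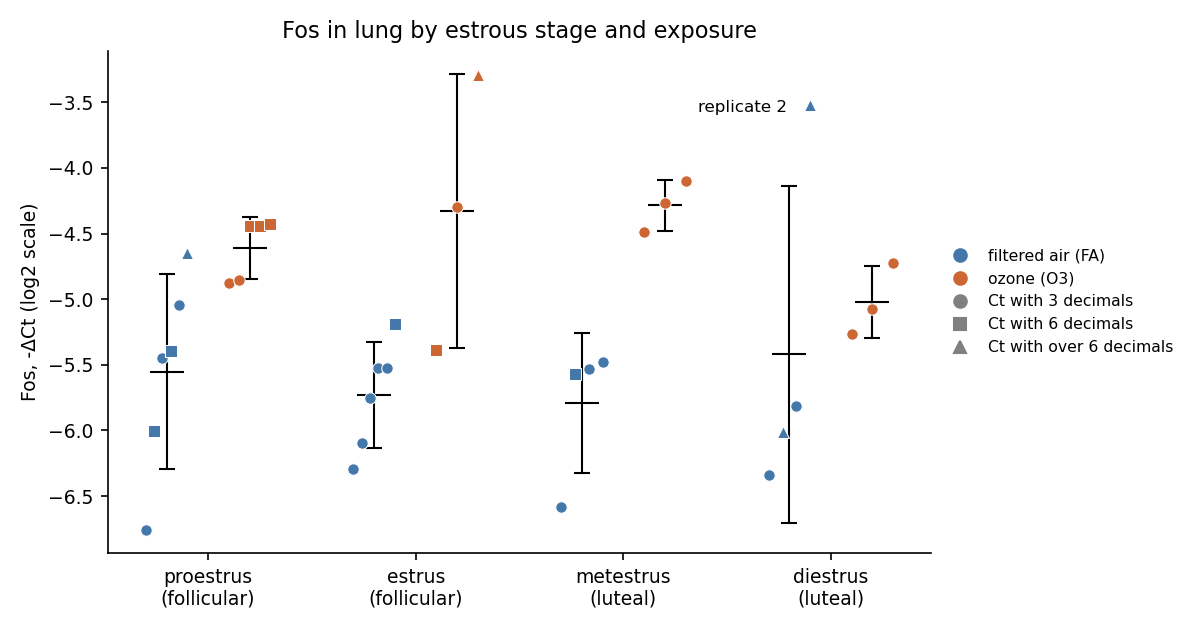
Fos level (-ΔCt, log2 scale) of each of the 34 mice by estrous stage, FA in blue and O3 in orange, with group mean and SD in black. Marker shapes give the number of decimals with which the Ct values of a mouse were deposited. The O3 means lie above the FA mean of every stage, and FA diestrus replicate 2, at -3.52, lies far above the other FA mice.

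The order of the group means followed exposure and not stage. From the highest it was O3 metestrus with -4.28 ± 0.196 (SD, n = 3), O3 estrus with -4.33 ± 1.05 (n = 3), O3 proestrus with -4.61 ± 0.237 (n = 5) and O3 diestrus with -5.02 ± 0.276 (n = 3). The FA groups followed, with -5.42 ± 1.28 in diestrus (n = 4), -5.55 ± 0.745 in proestrus (n = 6), -5.73 ± 0.406 in estrus (n = 6) and -5.79 ± 0.532 in metestrus (n = 4). Neighbors in this order overlapped in range in every case, and the exact permutation tests between neighbors gave two-sided p from 0.107 to 0.9. All 14 O3 mice were above the median of the 20 FA mice, and 4 FA mice were above the lowest O3 mouse.

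Averaged over the 4 stages with equal weight, Fos was higher in O3 than in FA mice by 1.06 on the log2 scale (SE 0.247, 95% CI 0.56 to 1.57, limma adjusted p = 0.00103), with 33.3% of the 84 wells called in this comparison. This call held with every reference well tried, without each mouse in turn and under every other alternative that could be run. Of the 4 stages in this average, proestrus and estrus make up the difference through which the well was named, so the average is not free of that choice, and the luteal values are the ones that had no part in it. In the follicular phase the mean level was -5.64 ± 0.580 in FA (SD, n = 12, lowest -6.76, median -5.53, highest -4.65) and -4.50 ± 0.605 in O3 mice (n = 8, lowest -5.39, median -4.44, highest -3.30). The difference was 1.14 (SE 0.310, 95% CI 0.506 to 1.769, limma adjusted p = 0.00564), with 22.6% of wells called. Of the 8 O3 mice, 5 were above every FA mouse of this phase. Full separation was seen in 8.33% of wells here. With reference well H2 alone the difference was 1.35 with adjusted p = 0.126, and with H3 alone it was 0.92 with adjusted p = 0.152, so the follicular call depends on which reference wells are used, while the direction was the same with each.

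In the luteal phase, which had no part in naming the well, the mean Fos level was -5.61 ± 0.931 in FA (SD, n = 8, lowest -6.59, median -5.69, highest -3.52) and -4.65 ± 0.457 in O3 mice (n = 6, lowest -5.27, median -4.61, highest -4.10). The difference of 0.95 (SE 0.367, 95% CI 0.206 to 1.701) did not pass the threshold after adjustment over the 84 wells (limma adjusted p = 0.0588, unadjusted p = 0.0140), with 21.4% of wells called. The exact permutation test of Fos alone gave p = 0.0453, two-sided. The call in this comparison depended on single animals. FA diestrus replicate 2 had the highest Fos level of the 8 FA mice, -3.52 against -6.59 to -5.48 in the other 7. Without it the difference was 1.25 (SE 0.309, limma adjusted p = 0.00385, exact permutation p = 0.00117), and all 6 O3 mice lay above all 7 FA mice, as they did in 7.14% of wells. Leaving out O3 estrus replicate 1 or O3 diestrus replicate 1 also brought the luteal difference past the threshold (0.95 with adjusted p = 0.0451 and 1.08 with adjusted p = 0.0456).

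FA diestrus replicate 2 also stood apart in wells outside the 84 array wells. Row H of such plates usually carries technical controls, although the files do not say which. In this mouse the mean Ct of wells H7 to H9 was 26.7, against 18.8 to 22.5 in the 30 mice not numbered 31 to 34 in the labels, and the mean Ct of wells H10 to H12 was 27.5, against 19.0 to 21.3. Both were the highest of all 34 mice. Outside the ranges of those 30 mice in both sets of wells were also FA proestrus replicate 1 (23.7 and 23.6) and O3 estrus replicate 1 (22.8 and 23.1). The reference wells of FA diestrus replicate 2, at a mean Ct of 22.4, were within the range of those 30 mice, 18.6 to 23.2. Among these wells, H2 was at a Ct of 23.3 in this mouse and of 23.9 in O3 estrus replicate 1, above every one of the 30 (17.6 to 22.5). By its definition -ΔCt is higher with a higher reference Ct, while the place of Fos among the 84 wells of a mouse does not depend on the reference. Fos was in place 11 in FA diestrus replicate 2, against 17 to 26 in the other FA mice. The part of the reference wells in the Fos level of this mouse was not tested. The mouse belongs to the 4 numbered 31 to 34, whose Ct values were deposited with over 6 decimals, while 22 mice had 3 decimals and 8 had 6. The 3 others of this set were FA proestrus replicate 1, O3 estrus replicate 1 and FA diestrus replicate 1, of which the first and the second had the highest Fos level of their own groups. What the number of decimals stands for is not given in the sources used here, and its part in the Fos values was not tested apart from the fits given here. Without the 4 mice the O3 difference was 1.06 in the follicular phase (limma adjusted p = 0.000652) and 1.23 in the luteal phase (adjusted p = 0.00138). Among the mice with 3 decimals alone it was 1.13 (adjusted p = 0.0228) and 1.30 (adjusted p = 0.00348), and among those with 6 decimals the follicular difference was 0.86 (adjusted p = 0.140), with no O3 mouse in the luteal phase.

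**Figure D2:**
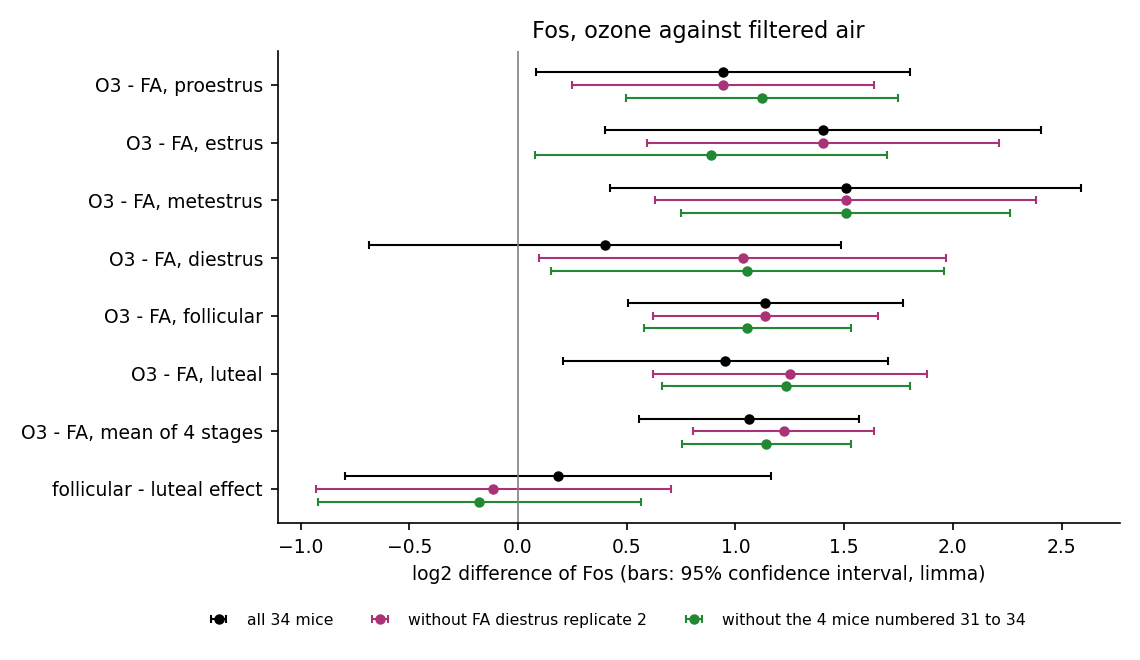
Difference of Fos between O3 and FA mice on the log2 scale, with 95% confidence intervals from limma, for each stage, each phase and the mean of the 4 stages, and in the bottom line the follicular minus the luteal difference. Black is all 34 mice, purple is without FA diestrus replicate 2 and green is without the 4 mice numbered 31 to 34. The luteal interval moves from 0.206 to 1.701 with all mice to 0.620 to 1.882 without replicate 2, and the phase difference spans 0 in all 3 fits.

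By stage, the O3 difference in Fos was 0.94 in proestrus (limma adjusted p = 0.145, 14.3% of wells called), 1.40 in estrus (adjusted p = 0.0508, 14.3% called), 1.51 in metestrus (adjusted p = 0.0857, 7.14% called) and 0.40 in diestrus (adjusted p = 0.772, 11.9% called, 5.95% in each direction). None passed the threshold with all mice, and with 3 to 6 mice a group the intervals were wide, from 0.083 to 1.803 in proestrus and from -0.68 to 1.48 in diestrus. The median O3 difference over all 84 wells was 0.06 in proestrus, 0.56 in estrus, -0.02 in metestrus and 0.0001 in diestrus. In estrus this median was 1.54 with H2 alone and 0.04 with H5 alone. The Fos value of estrus therefore holds a shift of the whole array that depends on the reference. The smallest two-sided p that an exact permutation test can give is 0.0571 in metestrus and in diestrus, and metestrus gave that value. Without FA diestrus replicate 2, the diestrus difference became 1.03 (adjusted p = 0.153), the estrus difference of 1.40 had adjusted p = 0.0101 and the metestrus difference of 1.51 had adjusted p = 0.0213, through the smaller spread shared by all groups in the fit. The estrus value also passed without FA proestrus replicate 1 or 2, FA estrus replicate 1, O3 estrus replicate 2, FA diestrus replicate 3, O3 diestrus replicate 2 or FA metestrus replicate 4 (adjusted p = 0.0100 to 0.0497), and it was 1.93 without O3 estrus replicate 2 and 0.89 without O3 estrus replicate 1 (adjusted p = 0.432).

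No difference in Fos between phases or stages passed the threshold in either exposure. Among FA mice the follicular phase differed from the luteal phase by -0.03 (95% CI -0.67 to 0.60, limma adjusted p = 0.982), and among O3 mice by 0.15 (95% CI -0.60 to 0.90, adjusted p = 0.798). For the FA phases limma called 0 of 84 wells, with 5 at an unadjusted p under 0.05, and for the O3 phases it called 8.33%. The O3 difference was 0.18 larger in the follicular than in the luteal phase (95% CI -0.79 to 1.16, adjusted p = 0.870), and without FA diestrus replicate 2 it was smaller instead, -0.11 (95% CI -0.93 to 0.70). No well passed the threshold for this interaction, with 19 at an unadjusted p under 0.05. Tests over the 4 stages together gave moderated F = 0.260 among FA mice (adjusted p = 0.996, 0 wells called, 3 at an unadjusted p under 0.05), F = 0.721 among O3 mice (adjusted p = 0.774, 2.38% of wells called) and F = 0.944 for the O3 difference across stages (adjusted p = 0.868, 0 wells called, 6 at an unadjusted p under 0.05). The intervals allow a phase difference of up to 0.90 among O3 mice.

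The reference wells move the whole array, so the Fos difference was also set against the median well. The median O3 difference over all 84 wells was 0.29 in the follicular phase with the 4 reference wells, and it ranged from -0.10 to 0.50 with other references. In the luteal phase it was -0.12, with a range of -0.25 to 0.03. Relative to the median well, Fos was higher by 0.85 in the follicular phase, by 1.07 in the luteal phase and by 1.08 over the mean of the stages, values that do not depend on the reference. With the mean Ct of the array wells in place of the reference wells, Fos differed by 0.75 in the follicular phase (limma adjusted p = 0.00288) and by 0.88 in the luteal phase (adjusted p = 0.00433).

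The AP-1 target Ptgs2 differed more than Fos between the exposures. Its follicular levels ran from -8.77 to -5.57 in FA mice (median -7.55) and from -5.70 to -3.83 in O3 mice (median -4.92), and 7 of 8 O3 mice were above every FA mouse. Its luteal levels ran from -7.82 to -6.42 in FA mice (median -6.96) and from -6.69 to -4.60 in O3 mice (median -4.90), and 5 of 6 O3 mice were above every FA mouse. The limma difference of Ptgs2 was 2.52 in the follicular phase (SE 0.321, adjusted p = 2.3e-07) and 1.65 in the luteal phase (SE 0.380, adjusted p = 0.00178). Both phases had a part in naming the Ptgs2 well.

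Within each mouse, the gap between Fos and Ptgs2, the Ct of Ptgs2 minus the Ct of Fos, holds no reference well. This measure was chosen after the data were seen. A gap between 2 PCR assays also holds their efficiencies, so only its change between groups is read. In the follicular phase the gap was 1.78 ± 0.525 in FA mice (SD, n = 12, lowest 0.92, median 1.82, highest 2.57) and 0.40 ± 0.191 in O3 mice (n = 8, lowest 0.04, median 0.49, highest 0.59). All 8 O3 mice were below all 12 FA mice. The share of other wells with such a separation in their gap to Ptgs2 was not computed. In this phase Ptgs2 rose by 2.23 more than the median well, so a smaller gap to Ptgs2 in O3 mice is not particular to Fos. The difference of the gap was -1.38 (exact permutation test, two-sided, p = 1.6e-05, the smallest it can give here, and 3.2e-05 after Benjamini-Hochberg adjustment over both phases). Both wells were named through their differences in this phase and these mice, so the test is not free of that choice. In the luteal phase the gap was 1.32 ± 0.959 in FA mice (n = 8, lowest -0.002, median 1.28, highest 2.92) and 0.62 ± 0.586 in O3 mice (n = 6, lowest -0.13, median 0.61, highest 1.62). There the groups overlapped and the difference of -0.70 did not pass (exact permutation p = 0.139), nor did it without FA diestrus replicate 2, which had the widest gap (-0.47, exact permutation p = 0.242). Whether the change of the gap differed between the phases was not tested.

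**Figure D3:**
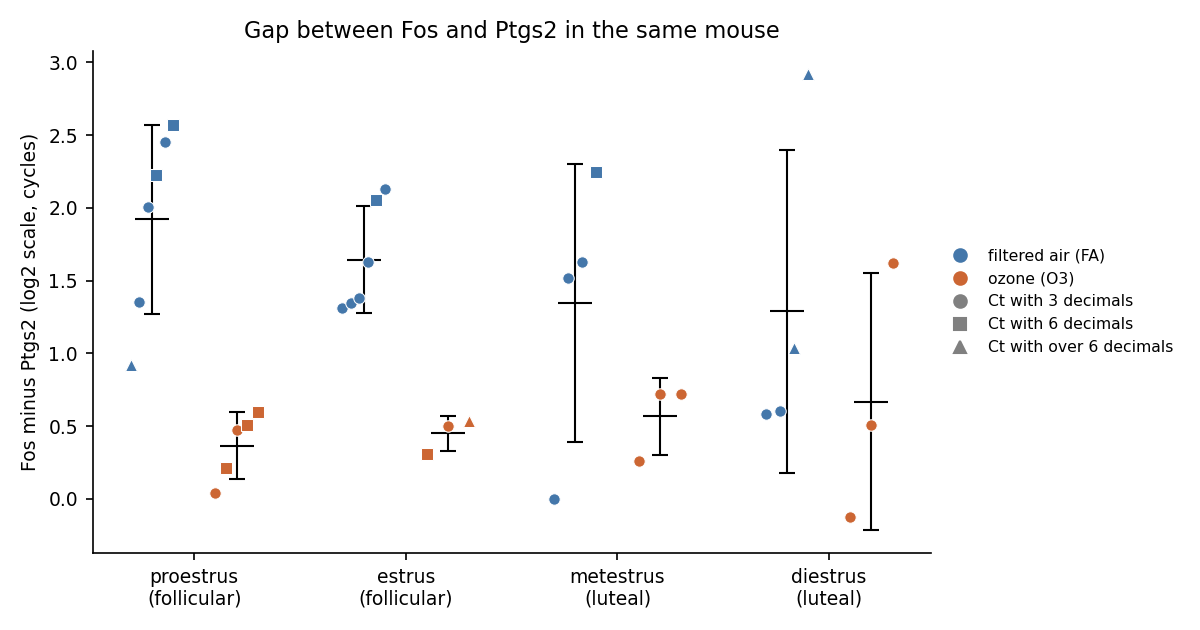
Gap between Fos and Ptgs2 in each mouse (Ct of Ptgs2 minus Ct of Fos, log2 scale) by estrous stage, FA in blue and O3 in orange, with group mean and SD in black and marker shapes for the decimals of the Ct values. In proestrus and estrus every O3 mouse, at 0.04 to 0.59, lies below every FA mouse, at 0.92 to 2.57, while in metestrus and diestrus the groups overlap.

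Mice with more Fos than the rest of their group also tended to have more Ptgs2, and the same held for most other wells when all mice and the 4 reference wells were used. After each of the 8 group means was subtracted, Pearson's r over the 34 mice was 0.55 (permutation p = 0.00295, 0.00785 after adjustment over 5 relations) and Spearman's rho was 0.53 (permutation p = 0.00623, adjusted 0.0312). Without the 2 mice farthest from the median of Fos, FA diestrus replicate 2 and FA proestrus replicate 2, r was 0.56. The reference Ct of a mouse enters both values. Over all 83 other wells the median r with Fos was 0.38, with 71 wells above 0, and Ptgs2 was in place 26. With the mean of the array wells as the reference, r with Ptgs2 was 0.19 (permutation p = 0.366), the median over the 83 wells was 0.03 and Ptgs2 was in place 19. Without the 4 mice numbered 31 to 34, r with Ptgs2 was 0.47 (permutation p = 0.0461), the median over the 83 wells was 0.13 and Ptgs2 was in place 5. In the mice with 3 decimals r was 0.48 (permutation p = 0.160).

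Within the groups of exposure and phase r ran from 0.18 to 0.95. These r values were computed without subtracting the stage means, so differences between the stages of a phase enter them. In O3 luteal mice, for example, the means in metestrus and diestrus were -4.28 and -5.02 for Fos and -4.85 and -5.69 for Ptgs2. In FA follicular mice r was 0.78 (n = 12, permutation p = 0.00378, adjusted 0.00785) and rho 0.67 (permutation p = 0.0209, adjusted 0.0521), with r = 0.43 without the 2 farthest mice. Among O3 follicular mice r was 0.95 (n = 8, exact permutation p = 0.00471, adjusted 0.00785) and rho 0.74 (exact permutation p = 0.0458, adjusted 0.0764), with r = 0.61 without the 2 farthest, which were O3 estrus replicates 1 and 2. In both groups r was lower without those mice. They were picked by their distance from the median of Fos, and narrowing the range of Fos can itself lower r. FA luteal mice had r = 0.18 (n = 8, exact permutation p = 0.714) and rho = -0.10 (exact permutation p = 0.840), and r was -0.35 without the 2 farthest. O3 luteal mice had r = 0.71 (n = 6, exact permutation p = 0.150) and rho = 0.43 (exact permutation p = 0.419), and r was 0.74 without the 2 farthest. Differences between these r values were not tested.

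**Figure D4:**
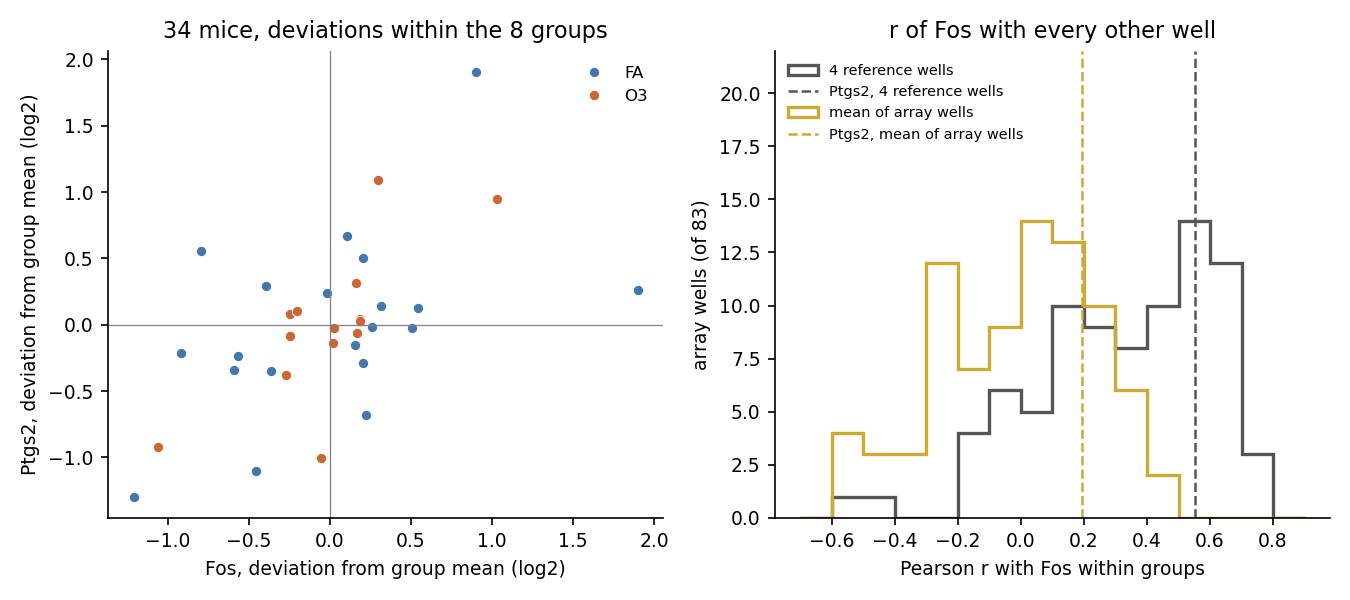
Left, deviation of Ptgs2 from its group mean against that of Fos for the 34 mice (log2 scale, FA in blue, O3 in orange). Right, number of the 83 other wells by their Pearson r with Fos within groups, with the 4 reference wells (grey) and with the mean of the array wells (yellow) as the reference, and dashed lines at Ptgs2, r = 0.55 and r = 0.19. The whole set of wells moves down with the second reference, from a median of 0.38 to 0.03.

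With all mice and the 4 reference wells, the named wells most like Fos within groups were Il1r1, the signaling receptor of interleukin-1 (r = 0.68), Ccl11, the eosinophil chemokine eotaxin (r = 0.64), and Ccl17, a chemokine that attracts T cells through CCR4 (r = 0.63). Myd88, the adaptor of Toll-like and interleukin-1 receptors, was the least like it, with r = -0.12. These values are over 34 mice and 16 named wells, and with the mean of the array wells as the reference the first 3 fell to 0.08, 0.28 and 0.13. Among all 83 other wells the same 3 were in places 7, 9 and 10 with the 4 reference wells. The wells most like Fos had no name, with r up to 0.77. The order changed with the setting. Without the 4 mice numbered 31 to 34 the same 3 had r of 0.38, 0.26 and 0.22, Ptgs2 (0.47) and Il6 (0.40) came first, Myd88 was at 0.05 and Ltb, the gene of lymphotoxin beta, was last at -0.44. With the mean of the array wells Cxcl10, a chemokine induced by interferon, came first (0.28) and Ltb was again last (-0.37). Cxcl10 and Ltb are named here after their values were seen.

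Around Fos, 7 genes of the AP-1 pathway could be placed, all of them from the study's lists of genes changed in these mice, so that their counts are not independent evidence. Of the 4 AP-1 targets, Ptgs2, Il6 and Ccl2 rose and Nos2 fell in the follicular phase, where 19% of the 84 wells were called higher and 3.57% lower. Il6, the gene of the acute phase cytokine interleukin-6, was higher by 7.44 (limma adjusted p = 1.5e-07), a value that depends on the Ct of 40 given to the 7 of 12 FA follicular mice without one. Ccl2, which codes for the monocyte chemokine MCP-1, differed by 2.11 (adjusted p = 2.0e-05). Nos2, the inducible nitric oxide synthase, differed by -1.66 (adjusted p = 0.0392), and it lost this call with H1 alone (adjusted p = 0.0627) or H2 alone (adjusted p = 0.257). The median of the 4 targets was 2.31, against 0.29 over all wells.

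In the luteal phase, where 11.9% of wells were called higher and 9.52% lower, Ptgs2 and Il6 rose and Nos2 fell, while Ccl2 had a difference of 0.95 with adjusted p = 0.102. Il6 was higher by 6.81 (limma adjusted p = 2.8e-05), with 5 of 8 FA mice given a Ct of 40. Nos2 was at -2.11 (adjusted p = 0.0296), which holds 1 O3 mouse without a Ct for Nos2, at -17.57, against -11.6 to -9.88 in the O3 mice of the follicular and luteal phases that had one. The median Nos2 level of the luteal phase was -10.47 in O3 and -9.69 in FA mice. The FA mice ran from -10.50 to -8.24, so the groups overlapped. The median of the 4 targets was 1.30, against -0.12 over all wells. With H2 alone as the reference, Ptgs2 and Nos2 no longer passed in this phase (adjusted p = 0.112 and 0.243).

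Of the 3 genes that act upstream of AP-1, Cd14, the co-receptor for lipopolysaccharide, rose in the follicular phase by 1.89 (limma adjusted p = 6.4e-05), with a luteal difference of 0.69 (adjusted p = 0.225). Il1r1 rose in both phases, by 0.86 (adjusted p = 0.00581) and 0.85 (adjusted p = 0.0296), but it passed in neither phase with H2 alone (adjusted p = 0.236 and 0.4655) or H3 alone (adjusted p = 0.270 and 0.177). Myd88 rose in the luteal phase by 1.52 (adjusted p = 0.0150), a call lost with H2 alone (adjusted p = 0.143) and H3 alone (adjusted p = 0.0605), while its follicular difference was 0.25 (adjusted p = 0.707) and turned to -0.14 with the mean of the array wells as the reference. The Myd88 well was named through its luteal difference, so that call is not free of the naming. Over the mean of the 4 stages 6 of the 7 genes rose and 1, Nos2, fell, with a median of 1.30 against -0.02 over all wells, where 23.8% of wells were called higher and 9.52% lower. In that average Myd88 passed no longer with H2, H3 or H5 alone or with the mean of the array wells (adjusted p = 0.0672, 0.110, 0.0872 and 0.140), nor Il1r1 with H3 alone (adjusted p = 0.0575). Every direction other than that of Myd88 in the follicular phase was the same under all references tried.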

How the data were processed

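Lung RNA of 34 mice was measured on PCR array plates. The authors deposited the Ct of each well without normalization, and a table of fold changes (a linear ratio) that was rebuilt here in 100% of 3026 values from H1, H2, H3 and H5, a Ct of 36 for empty wells and FA diestrus replicate 1 as calibrator. The precision of a Ct cannot be given as a count, since the number of molecules is unknown from the files. Columns of samples used in no step numbered 0.

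From the deposited Ct values, -ΔCt was computed (log2 scale, Ct 40 for the 237 of 2856 array values without one, none of them Fos). Group means of exposure by phase, and in a second fit of exposure by stage, were fitted to all 34 mice and 84 wells with limma 3.58.1 in R 4.3.3 (two-sided, Benjamini-Hochberg over the 84 wells, FDR under 0.05). The fits were tested on simulated data with independent, normally distributed wells. Empty wells, outlying mice and a reference shared by the wells were not simulated. Permutation tests used Python 3.11.15 and scipy 1.17.1, exact up to 8 mice in a relation and for differences between groups, and otherwise with 100000 resamples. P-values set a difference or a relation against the variation between mice, which limma pools over groups and moderates across wells.

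The gene, the lists and the tests were chosen with earlier results of these data known. Genes named were Fos, Ptgs2, the 7 placed genes of the AP-1 pathway, and the 3 placed wells most like Fos and the 1 least like it. The replicate numbers did not pair the mice. Alternatives were other reference wells, the mean of the 55 array wells in which all mice reached a Ct by cycle 35, other handling of empty wells, a filter on low wells (83 kept), limma's trend and robust options, the deposited fold changes, the Ct format as a term or subset, single mice left out, the replicate number as a block, separate fits and permutation tests. Sequences came from the RefSeq promoter table (GRCm38.p6), in which both genes were found. The 67 array wells without a name were counted and not named.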

Additional observations from a re-analysis of the deposited data

Results flagged for a closer look

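Within 24 groups of 4 to 10 mice tested (Fos, Ptgs2 and their gap by stage or phase), 2 mice lay far from the others by Dixon's criterion, which chance alone meets in about 1 group in 20. FA metestrus replicate 4 had the lowest Fos level of its 4 mice, -6.59, against -5.57 to -5.48 in the 3 others. FA diestrus replicate 2 had the highest Fos level of the 8 FA luteal mice, -3.52, against -6.59 to -5.48 in the other 7.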

How the results depend on the processing

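Of all the Fos differences, the one over the mean of the 4 stages passed the threshold in each of the 18 alternatives and the 34 fits without 1 mouse (0.93 to 1.22). The replicate numbers did not pair the mice: the median correlation of deviations was 0.027 over 98 pairs of mice with the same number (-0.43 to 0.73) and -0.0022 over 402 with another. With the replicate block the difference was 0.99 over the stages (limma adjusted p = 0.00736), 1.11 in the follicular (adjusted p = 0.0163) and 0.84 in the luteal phase (adjusted p = 0.128), and no call changed.

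The follicular difference lost its call with H2 alone (1.35), H3 alone (0.92) and in the mice with 6 decimals (0.86). It ran from 0.96 to 1.26 without single mice. The luteal difference passed with H1 to H5 (1.01), H5 alone (0.89), the mean of the array wells (0.88), limma's trend (0.95), the Ct format as a term (1.28), the mice with 3 decimals (1.30) and without the 4 mice numbered 31 to 34 (1.23). It ran from 0.81 to 1.25 without single mice. In proestrus the difference passed with H5 alone (1.18), the array mean (0.73), the format as a term (1.12), without the 4 mice (1.12) and by exact permutation (0.94). In estrus it passed with H1 to H5 (1.46), the linear fold changes (2.54) and, at 1.40, with empty wells left missing, a Ct limit of 35, the filter on low wells and limma's trend. The estrus difference was -0.20 in the mice with 6 decimals, which there were only O3 estrus replicate 2 and FA estrus replicate 1, so this value compares single mice. Without single mice it ran from 0.89 to 1.93. In metestrus it passed with H1 to H5 (1.56), H5 alone (1.47), the array mean (1.23), the format as a term (1.55), the mice with 3 decimals (1.58), without the 4 mice (1.51) and in a separate fit (1.51), with 1.24 to 1.61 without single mice. In diestrus it turned to -0.13 on the linear fold changes.

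Differences between phases, none of which passed, changed sign. The interaction was -0.087 with H3 alone, -0.13 with the array mean, -0.24 with the format as a term, -0.17 in the mice with 3 decimals, -0.18 without the 4 mice, and -0.11 to 0.32 without single mice. Among O3 mice the phase difference was, in the same order, -0.038, -0.19, -0.093, -0.026 and -0.023, and -0.023 to 0.28 without single mice. Among FA mice it was 0.019 with H1 to H5, 0.049 with H3 alone, 0.034 with H5 alone, 0.15 with the format as a term, 0.14 with 3 decimals, 0.040 with 6 decimals (where 1 FA mouse was luteal), 0.16 without the 4 mice, and -0.17 to 0.26 without single mice, turning without FA diestrus 2, FA proestrus 2, FA estrus 2 or FA estrus 5.

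Wells called in the follicular phase numbered 10 with H2 alone and 30 with the array mean, against 19. In the luteal phase they numbered 3 on the linear fold changes, 6 with H2 alone, 9 with H3 alone and 29 without the 4 mice, against 18, and 10 to 24 without single mice, the lowest without O3 diestrus replicate 2. Over the stages they numbered 17 on the linear fold changes and 18 with H2 alone, against 28. The correlation of Fos with Ptgs2 lost its call with the array mean (0.19) and in the mice with 3 decimals (0.48). The gap between Fos and Ptgs2 kept its call in the follicular phase without single mice (-1.46 to -1.31), without the 4 mice (-1.48) and in the mice with 3 decimals (-1.36), alternatives added after the data were seen. The causes of these changes were not tested.

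In the mice with 6 decimals, luteal comparisons could not be fitted, since no O3 luteal mouse had them, nor the correlation, with fewer than 6 mice in groups of more than 1. A Ct of 1 run per mouse and groups of 3 to 6 mice limit the precision.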
